A study of Mus musculus with 6 samples.

Results

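The enzymes described here make purine and pyrimidine nucleotides from small precursors. The group held 10 of the 22322 genes in a table of ribosome footprint counts, and was chosen by gene identity: 7 enzymes of the purine route (Ppat, Paics, Gart, Adsl, Atic, Gmps and Impdh2) and 3 of the pyrimidine route (Cad, Umps and Ctps). Ribosome profiling sequences the short stretches of mRNA that ribosomes cover. The counts came from CD4+ T cells, the helper lymphocytes, in 3 resting and 3 activated libraries. The cells were those of female C57BL/6J mice aged 6 weeks, isolated by negative selection out of spleen and lymph nodes. Both groups were grown in RPMI medium with 10% foetal calf serum and 50 µM β-mercaptoethanol and were labelled untreated at 0 h. The activated group had in addition received magnetic beads carrying antibodies to CD3 and CD28. How long they were stimulated is not stated in the labels. Replicates were numbered 2, 3 and 4 in both groups, and whether a number stands for an animal, a pool or a culture is not stated. Every p-value therefore measures how far these libraries differ, which may be a technical spread.

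Purine nucleotides are built ring atom by ring atom on phosphoribosyl pyrophosphate until inosine monophosphate (IMP) is reached, from which separate branches lead to AMP and GMP. In the pyrimidine route the ring is closed first and joined to the sugar phosphate afterwards, giving UMP, from which CTP is made. Resting lymphocytes are known to recycle nucleobases and nucleosides, and to turn to new synthesis when they prepare to divide, which is why inhibitors of these enzymes serve as immunosuppressive drugs.

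All 10 genes were found in RefSeq's tables for assembly GRCm38.p6, the assembly that mm10, the build of the counts, is made from. On the plus strand lie Atic (chr1:71557156-71579403), Gmps (chr3:63963633-64021554), Cad (chr5:31054620-31078479), Impdh2 (chr9:108560436-108565577) and Adsl (chr15:80948490-80970947). On the minus strand lie Ctps (chr4:120539868-120570276), Gart (chr16:91621395-91646972) and Umps (chr16:33954782-33967038). Ppat (chr5:76913249-76951578, minus strand) and Paics (chr5:76951302-76967509, plus strand) are head-to-head neighbours whose annotated spans share 277 bases at their starts. No source used here states the strand setting of the counting, so footprints within those shared bases cannot be told apart between both genes. Spans of other genes also overlapped Gmps (Slc33a1, 1101 bases), Cad (Atraid, 14 bases) and Adsl (the pseudogene Gm6612, 541 bases). The largest overlap was that of a long noncoding RNA with Ppat, 23504 bases on the same strand.

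Promoter windows of RefSeq, 250 bases before to 50 bases after a transcript start, were available for all 10 genes (11 windows, 2 of them for Ctps). They were searched on both strands for CACGTG, the palindromic E-box that Myc with Max and other basic helix-loop-helix proteins can bind, and for TATAAA. The E-box sequence occurred in 3 of the 11 windows and in 7.15% of all 32851 windows, and TATAAA in 3 of the 11 (Gmps, Umps and Impdh2) and 13.6% of all windows. G and C made up from 50% (second Ctps window) to 69.7% (Atic) of the 11 windows, against a median of 52.7% over all windows. The E-box sequence is itself rich in G and C, so all windows are not a like background for it, and a difference in shares was not tested. The E-box began 7 bases before the start of Atic, 110 bases before that of Impdh2 and 203 bases before that of Paics. TATAAA began 216 bases before the transcript start used for Gmps (218 on the opposite strand) and 178 bases before that of Umps. In Impdh2 it lay on the opposite strand from base 3 after the start. The 200 bases before the Gmps start are chr3:63975943-63976142, so that start lies inside the span given above and not at its edge. The start used for Cad, directly after chr5:31054779, also lies inside the span of its gene. The stretches of 200 bases that end at the start are printed for Atic and Impdh2, which hold the match, and for Ctps (first window), whose footprints changed most and whose windows hold none. They read 5′ to 3′ on the strand of the gene, and capitals mark CACGTG.
Atic, chr1:71556956-71557155, plus strand: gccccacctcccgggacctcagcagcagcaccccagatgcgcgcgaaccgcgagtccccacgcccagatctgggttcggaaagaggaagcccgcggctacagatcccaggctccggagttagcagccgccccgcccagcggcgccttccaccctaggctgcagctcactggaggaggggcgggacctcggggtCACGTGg
Impdh2, chr9:108560236-108560435, plus strand: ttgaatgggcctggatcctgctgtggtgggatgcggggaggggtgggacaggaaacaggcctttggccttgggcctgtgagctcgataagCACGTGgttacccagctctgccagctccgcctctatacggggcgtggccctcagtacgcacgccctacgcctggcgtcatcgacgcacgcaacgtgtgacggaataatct
Ctps, chr4:120570277-120570476, minus strand: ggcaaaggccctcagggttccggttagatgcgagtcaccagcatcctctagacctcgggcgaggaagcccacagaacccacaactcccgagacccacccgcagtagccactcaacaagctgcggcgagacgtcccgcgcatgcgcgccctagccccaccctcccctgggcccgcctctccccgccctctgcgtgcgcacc
A match is a description of these letters only, and binding was not measured here.

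Counts in coding sequence (CDS) summed to between 437200 and 594508 in resting and between 511483 and 1074656 in activated libraries. Of all genes, 6775 passed a filter on low counts and were tested together with edgeR's quasi-likelihood test, and all 10 enzymes were among them. Ctps, with 6, 8 and 13 counts at rest, passed that filter through the activated libraries. Levels are CPM, counts scaled to a common library size, after TMM scaling, a correction for differences in composition between libraries. Values of single libraries are listed in the order of replicates 2, 3 and 4. Of all genes tested, 1633 were higher and 1449 lower in activated cells, but 1392 and 1881 with upper quartile scaling and 1099 and 2560 with library totals alone, and the median log2 change went from -0.04 to -0.17 and -0.38. DESeq2 called 1391 higher and 827 lower. The table pairs its IDs with no symbols, so markers of CD4+ T cells or of other cell types, and the other genes of nucleotide metabolism, were not analysed here.

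Footprints on 8 of the 10 enzymes rose in activated cells (edgeR adjusted p under 0.05), against 24.1% of all genes tested, and those on Paics and Gmps did not pass the test. None of the 10 was called lower by edgeR (0 at an unadjusted p under 0.05, and 0 by DESeq2 or limma voom), against 21.4% of all genes. Rises of at least 2-fold were called for 6 of the 10 and for 14.7% of all genes, 998 genes. With library totals alone these were 4 of the 10 and 684 genes, as Impdh2 (log2 change 0.91) and Umps (0.96) then lay below 2-fold and still passed the test. Each activated library lay above each resting library for 8 of the 10 enzymes and for 28.1% of all genes. The median log2 change of the 10 was 1.28, against -0.04 over all genes, and with library totals alone it was 0.94 against -0.38. A footprint count follows both the amount of an mRNA and the ribosomes on each copy, and from bulk cells a change in the make-up of the population and a change per cell cannot be told apart.

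The enzymes together held 0.116%, 0.114% and 0.110% of the CDS counts of the resting libraries, and 0.227%, 0.190% and 0.175% of those of the activated libraries. The means were 0.113 ± 0.00341% and 0.197 ± 0.0264% (SD, n = 3), and the groups did not overlap. This share divides by library totals, so it depends on the composition of the libraries as the setting with library totals alone does. The plot of levels by library shows the enzymes singly.

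**Figure D1:**
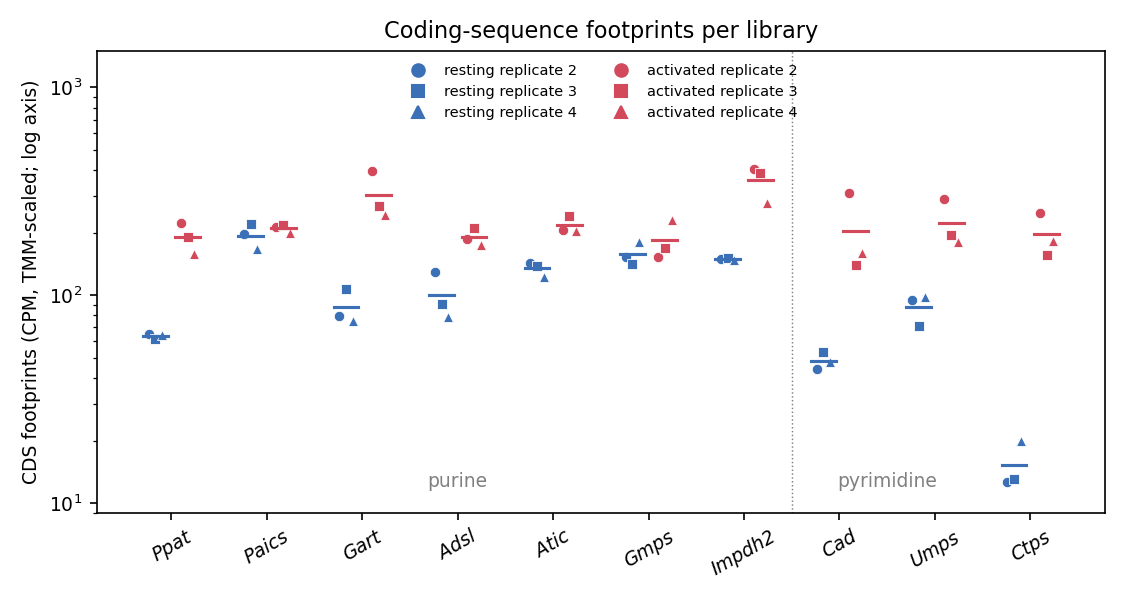
CDS footprints of the 10 enzymes in CPM (TMM-scaled, log axis) in each library, with resting libraries in blue, activated libraries in red, a marker shape per replicate number and a short line at the group mean. Ctps rises from between 12.6 and 20 CPM in resting libraries to between 157 and 250 CPM in activated libraries, and the groups overlap for Paics and Gmps.

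Ppat (ENSMUSG00000029246.13), the amidotransferase that commits phosphoribosyl pyrophosphate to purine synthesis, rose 2.94-fold. Resting libraries held 65.2, 61.6 and 64.6 CPM in its CDS (31, 38 and 42 counts), and activated libraries 223, 191 and 158 CPM (98, 152 and 148 counts). The resting values lay close together and well below every activated value. On the log2 scale this was a change of 1.56 (SE 0.19, 95% interval 1.15 to 1.96, edgeR adjusted p = 6.49e-06), from 63.8 ± 1.89 to 190 ± 32.6 CPM (SD, n = 3).

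Gart (ENSMUSG00000022962.13), a single protein that carries several early activities of the route, rose 3.39-fold. Resting libraries had 79.9, 107 and 75.3 CPM, activated libraries 395, 270 and 243 CPM. Activated replicate 2 stood highest, and the groups were far apart. The log2 change was 1.76 (SE 0.21, 95% interval 1.31 to 2.21, edgeR adjusted p = 5.11e-06), and 1.57 without activated replicate 2.

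Paics (ENSMUSG00000029247.16) acts in the middle of the same route as carboxylase and ligase. Its level was 196, 219 and 166 CPM in the resting libraries, beside 214, 217 and 200 CPM in the activated ones. The groups overlapped, and the activated libraries spread less than the resting ones. Its log2 change did not pass the test, at 0.12 (SE 0.16, edgeR adjusted p = 0.563). Its 95% interval, -0.22 to 0.46, does not reach a 2-fold change in either direction.

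The head-to-head neighbours Ppat and Paics were also compared as a ratio inside each library, which did not pass its test. Paics had 3.00, 3.55 and 2.57 CDS counts for each count of Ppat at rest, and 0.959, 1.14 and 1.27 in activated cells. Each activated ratio was lower than each resting ratio, and the share of other gene pairs without overlap was not counted. On the log2 scale the activated ratios were lower on average, by a difference of -1.43 (exact two-sided permutation p = 0.1, the smallest that 3 against 3 can give, and 0.150 adjusted over 3 ratios), a quantity that needs no scaling between libraries.

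Adsl (ENSMUSG00000022407.7), the lyase used on the way to IMP and again in the AMP branch, rose 1.93-fold. Resting cells gave 130, 90.8 and 78.4 CPM, and activated cells 186, 210 and 174 CPM. Resting replicate 2 was the highest of its group and still below every activated library. Adsl changed by 0.95 on the log2 scale (SE 0.20, 95% interval 0.53 to 1.36, edgeR adjusted p = 9.03e-04), and by 1.17 without resting replicate 2.

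Atic (ENSMUSG00000026192.12), which carries the last activities before IMP, had the smallest change among the enzymes that passed the test. Its resting libraries held 143, 138 and 123 CPM and its activated libraries 207, 240 and 203 CPM. The groups did not overlap, though the gap between them was narrow beside that of Ppat. In log2 terms Atic changed by 0.69 (SE 0.16, 95% interval 0.35 to 1.03, edgeR adjusted p = 0.00226). With library totals alone the value was 0.36 and no longer passed (edgeR adjusted p = 0.0725). The table also holds CDS counts in a wider mode, named intersection-nonempty in its header. Of the records of Atic in that mode, 17.8% were missing from the first CDS column, against a median of 6.34% over 5759 genes with at least 100 CDS counts. That share was 16.5% in resting and 18.4% in activated cells. Counted in the wider mode, its log2 change was 0.77 (edgeR adjusted p = 0.00110).

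**Figure D2:**
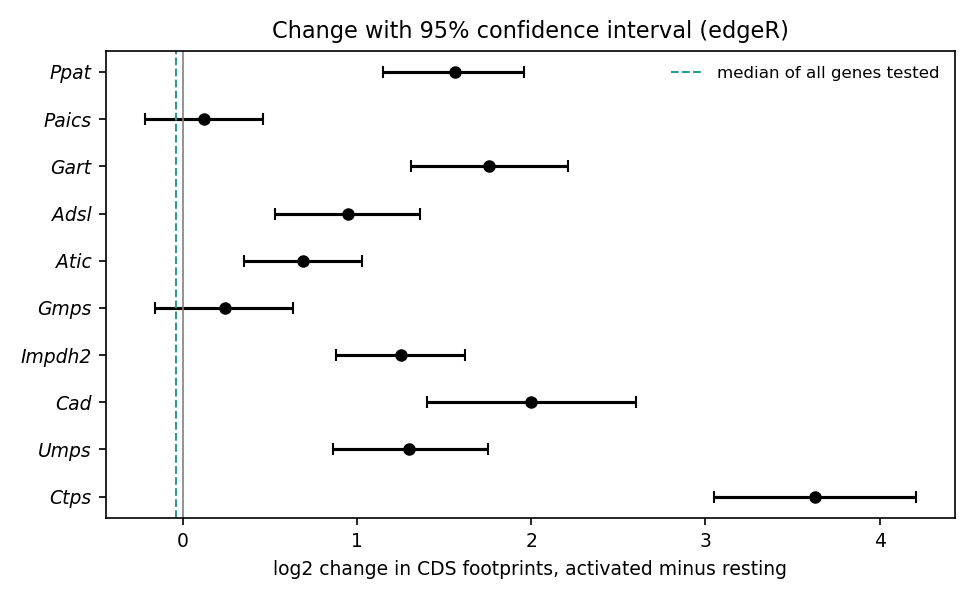
The log2 change in CDS footprints, activated minus resting, of each enzyme (points) with its 95% confidence interval (bars) from edgeR, and the median of all 6775 genes tested as a dashed line at -0.04. The intervals of Paics and Gmps include 0, and that of Ctps (3.05 to 4.21) lies above all others.

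Of the neighbouring enzymes of the GMP branch, Impdh2 passed the test and Gmps did not, and the ratio between them did not pass its own test. Impdh2 (ENSMUSG00000062867.12), the IMP dehydrogenase that is the target of mycophenolic acid, had 149, 151 and 148 CPM at rest. It reached 407, 387 and 277 CPM in the activated libraries. The resting libraries were almost equal, and activated replicate 4 was the lowest of its group. The log2 change was 1.25 (SE 0.17, 95% interval 0.88 to 1.62, edgeR adjusted p = 2.51e-05).

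Gmps (ENSMUSG00000027823.9), which turns the product of Impdh2 into GMP, had 153, 141 and 180 CPM in resting libraries, close to the 152, 168 and 231 CPM of the activated ones. The groups overlapped, with activated replicate 2 below a pair of the resting libraries. Gmps did not pass the test, with a log2 change of 0.24 (SE 0.18, 95% interval -0.16 to 0.63, edgeR adjusted p = 0.315). Without activated replicate 4 it was 0.06, and over the removal of each library it ran from 0.06 to 0.36.

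Within a library, Impdh2 had 0.973, 1.07 and 0.821 CDS counts for each count of Gmps at rest, against 2.67, 2.30 and 1.20 in activated cells. Activated replicate 4 was close to the highest resting ratio, and the groups did not overlap. The share of other gene pairs without overlap was not counted. The log2 ratio was higher by 1.04 in activated cells (exact two-sided permutation p = 0.1, adjusted 0.150).

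All 3 pyrimidine enzymes rose. Cad (ENSMUSG00000013629.15), the large protein that carries the opening activities of pyrimidine synthesis, had 44.2, 53.5 and 47.6 CPM in resting libraries. Activated libraries held 309, 140 and 159 CPM, or 136, 111 and 149 counts. Activated replicate 2 stood well above the other activated libraries, which were themselves above every resting library. Cad changed by 2.00 on the log2 scale (SE 0.28, 95% interval 1.40 to 2.60, edgeR adjusted p = 2.73e-05), and 1.64 without activated replicate 2.

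Umps (ENSMUSG00000022814.6), which completes UMP from orotate, had 94.6, 71.4 and 98.4 CPM in resting libraries. Its activated libraries gave 291, 195 and 180 CPM, again highest in replicate 2. This came to a log2 change of 1.30 (SE 0.21, 95% interval 0.86 to 1.75, edgeR adjusted p = 1.03e-04). The ratio of Cad to Umps was 0.467, 0.750 and 0.484 at rest, beside 1.06, 0.716 and 0.882 in activated cells. Here the groups overlapped, through both libraries numbered 3 (log2 difference 0.66, exact two-sided permutation p = 0.200, adjusted 0.200).

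Ctps (ENSMUSG00000028633.7), the synthase that aminates UTP to CTP, changed most of the 10. Resting libraries had 6, 8 and 13 CDS counts, which make 12.6, 13 and 20 CPM. Activated libraries had 110, 125 and 172 counts, or 250, 157 and 183 CPM. Every activated library was far above every resting library, but the resting level rests on 27 counts in all (exact Poisson 95% interval 17.8 to 39.3, which covers counting error only). The log2 change was 3.63 (SE 0.27, 95% interval 3.05 to 4.21, edgeR adjusted p = 3.91e-08), 12.4-fold. Of all genes tested, 0.768% had a higher log2 change. It ran from 3.47 to 3.89 over the removal of each library, and was 3.29 with library totals alone.

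**Figure D3:**
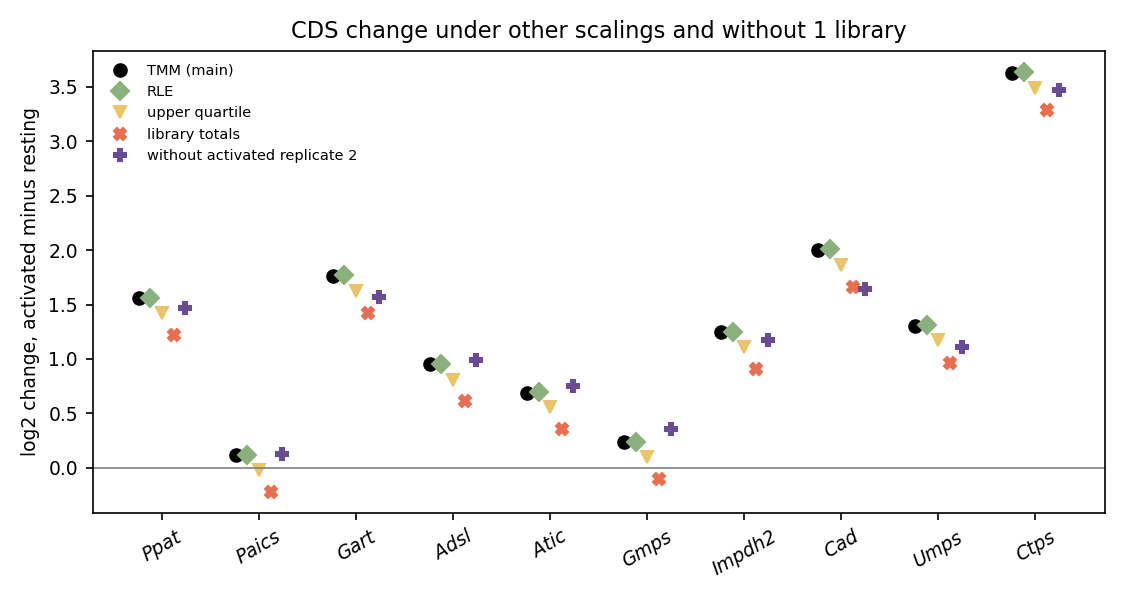
The log2 change in CDS footprints of each enzyme with TMM, RLE and upper quartile scaling, with library totals alone, and without activated replicate 2 (TMM), 1 marker each. Library totals give the lowest value for 9 of the 10 enzymes, and Paics and Gmps are then at -0.22 and -0.10.

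Ordered by log2 change, Ctps came first and its interval did not overlap that of Cad, the next. From Cad through Gart, Ppat, Umps, Impdh2 and Adsl each interval overlapped that of its neighbour in the order, as did that of Atic with both Adsl and Gmps. The interval of Paics overlapped those of Gmps and Atic and ended below that of Adsl (0.53 to 1.36). A share of 7.65% of all genes had a higher log2 change than Ppat, 5.64% than Gart, 4.21% than Cad and 43.0% than Paics.

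The make-up of the footprints on the 10 genes differed between the groups on both routes. As a sum, the 3 pyrimidine enzymes held 14.2%, 13.2% and 16.6% of these footprints at rest, and 32.3%, 22.6% and 26% in activated cells. These are shares of counts and depend on the length of each gene, so they compare groups and not enzymes. The groups did not overlap, at means of 14.6 ± 1.75% and 27 ± 4.91% (SD, n = 3). Within that sum Ctps went from 1.47 ± 0.455% to 8.61 ± 1.22% and Cad from 4.67 ± 0.498% to 8.68 ± 2.75%, while Umps, at 8.5 ± 1.54% and 9.65 ± 1.2%, had overlapping groups. The purine enzymes moved in both directions. Gart went from 8.41 ± 1.58% to 13.2 ± 1.6% and Ppat from 6.15 ± 0.283% to 8.36 ± 0.472%, without overlap. Lower shares without overlap were those of Paics (18.6 ± 2.19% to 9.36 ± 1.08%), Gmps (15.3 ± 2.38% to 8.34 ± 2.91%) and Atic (13 ± 0.583% to 9.67 ± 1.64%). Impdh2, at 14.4 ± 0.386% and 15.7 ± 2.01%, and Adsl, at 9.57 ± 2.32% and 8.46 ± 1.3%, had overlapping groups. As the shares sum to a fixed total, a rise of some lowers the others.

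**Figure D4:**
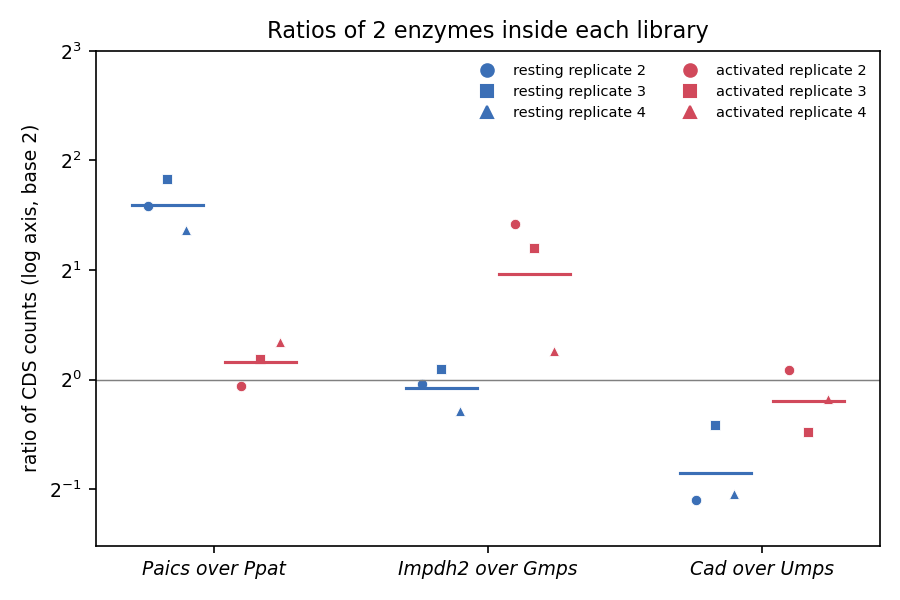
Ratio of CDS counts of 2 enzymes inside each library (log axis, base 2), with resting libraries in blue, activated libraries in red, a marker shape per replicate number and a short line at the geometric mean. Paics over Ppat goes from between 2.57 and 3.55 in resting to between 0.959 and 1.27 in activated libraries, and the groups overlap for Cad over Umps.

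The activated libraries were also compared among themselves. Activated replicate 2 was the highest of its group for 6 of the 10 (Ppat, Gart, Impdh2, Cad, Umps and Ctps) and the lowest for Gmps. Activated replicate 4 was the lowest for Ppat, Paics, Gart, Adsl, Atic, Impdh2 and Umps. The shares of all genes that are highest in activated replicate 2 or lowest in activated replicate 4 were not counted, so neither list has a background. The 6 that were highest in activated replicate 2 are also those that rose by at least 2-fold, but a high value in this library itself raises the change. Its level over the mean of activated replicates 3 and 4 was 1.05 on the log2 scale for Cad, 0.63 for Umps, 0.62 for Gart and 0.56 for Ctps, against -0.39 for Gmps. Over 6686 genes with at least 10 CPM in activated cells the median of this value was -0.01 and 90% of genes lay between -0.89 and 0.82 (0.5 CPM added to each level), so that only Cad lay outside that range. Activated replicate 2 also had the smallest CDS total of its group, 511483 counts. What lies behind these values was not tested. Without it, the same number of enzymes passed the test in edgeR, 8, with a median log2 change of 1.14.

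Footprints in 5' UTRs gave a further readout of the same mRNAs. They numbered 508 over the 10 enzymes and 6 libraries, and only Ppat, Paics, Gmps and Ctps passed the low-count filter among 2200 genes. Of these 4, Ppat and Ctps rose, and 22.2% of the 2200 genes were called higher. The filter kept genes with more counts, so the other 6 enzymes are not covered by this count. Enough counts in 1 group let a gene pass, and Ppat and Ctps passed through the activated libraries, where they are high. The count among these 4 is therefore shaped by the filter, and no result about the enzymes is drawn from it. The 5' UTR of Ctps held 2, 0 and 2 counts at rest and 28, 31 and 40 in activated cells. Activated libraries were all far above resting ones. On the log2 scale it changed by 3.97 (SE 0.53, edgeR adjusted p = 4.39e-05), and 3.27 without resting replicate 3. Ppat went from 8, 7 and 6 counts to 27, 31 and 28 counts, by 1.47 on the log2 scale (SE 0.37, edgeR adjusted p = 0.00504). Footprints in the bases that Ppat shares with Paics cannot be assigned with certainty. The 5' UTR log2 change was -0.03 for Paics (edgeR adjusted p = 0.945) and -0.28 for Gmps (edgeR adjusted p = 0.561), so in both regions these did not pass.

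Relative to the CDS of the same gene, 5' UTR counts were tested in 1 edgeR model for 4118 genes, 7 of the enzymes among them. At an unadjusted edgeR p under 0.05 there were 0 of the 7, against 425 of the 4118 genes, and 7 enzymes are too few to tell these shares apart. None of the 7 was called at an adjusted p under 0.05 (no other tool run), against 0.413% of all genes, or 17 genes. That background count was 2 to 22 with each library left out (5, 2 and 2 without resting replicate 2, 3 or 4, and 4 without activated replicate 3) and 3 with 1 scaling for both regions, and the enzymes called stayed at 0. Ppat had 25.8, 18.4 and 14.3 counts in the 5' UTR per 100 in the CDS at rest, beside 27.6, 20.4 and 18.9 in activated cells. In both groups replicate 2 was highest and replicate 4 lowest. Gmps had 19.2, 14.9 and 7.69 at rest and 17.9, 11.2 and 7.83 in activated cells, in the same order. For Impdh2 the values were lower, at 4.23, 3.23 and 1.04 at rest and 7.26, 5.19 and 5.00 in activated cells, without overlap. The resting values rest on 3, 3 and 1 counts in the 5' UTR, and the activated ones on 13, 16 and 13. Counts per 100 carry no scaling between regions, and the share of all genes without overlap in them is not given here. The log2 change of that ratio was 0.73 with a 95% interval of -0.44 to 1.89 (edgeR adjusted p = 0.728), so neither no change nor a 2-fold change lay outside it. For Ctps the resting ratio rests on 4 counts in the 5' UTR, and the interval ran from -1.22 to 1.94.

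**Figure D5:**
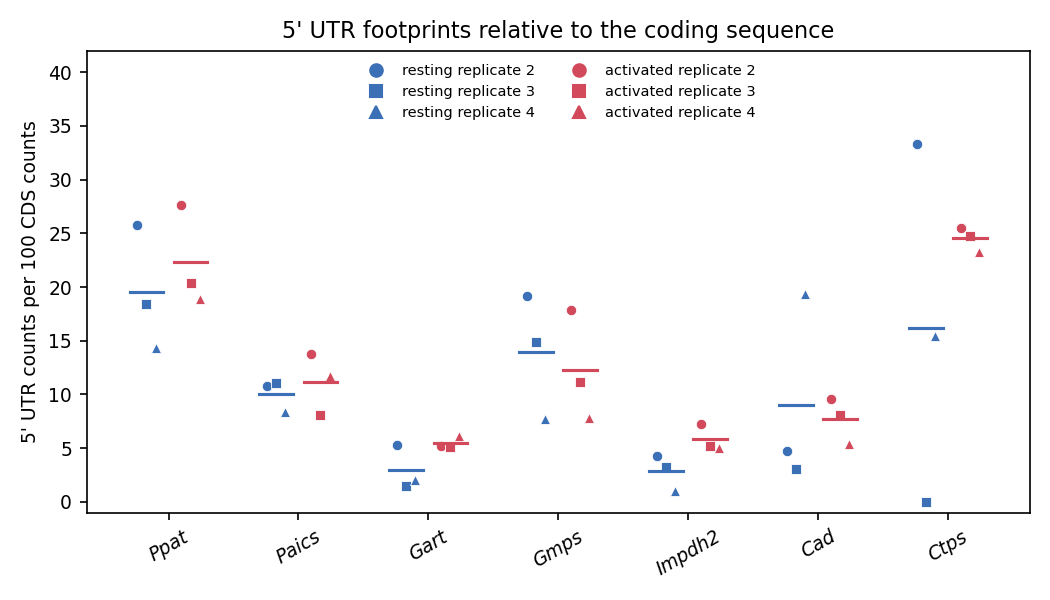
Counts in the 5' UTR per 100 counts in the CDS for the 7 enzymes tested, in each library, with resting libraries in blue, activated libraries in red, a marker shape per replicate number and a short line at the group mean. Groups overlap for each enzyme shown except Impdh2, whose resting values rest on 7 counts in the 5' UTR. The resting values of Ctps run from 0 to 33.3 on 4 counts.

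Adsl and Umps had 0 counts in the 5' UTR in every library. A count of 0 allows up to 3 counts, or 0.516 per 100 CDS counts for Adsl and 0.496 for Umps, for counting error only. Whether the annotation used for counting gave these genes a 5' UTR is not stated in the sources used here. Counts elsewhere on the 10 genes were few, at 22 in 3' UTRs and 12 in introns over all libraries, with at most 3 for a single gene in a single library.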

How the data were processed

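Ribosome footprints were counted per gene in 3 resting and 3 activated libraries. The authors deposited raw counts, 6 columns a library, which the file headers name as CDS in 2 modes, 5' UTR, 3' UTR, exons and introns. Per the submitters' processing notes, TopHat2 2.0.13, Bowtie 1.1.1.0 and HTSeq were used with mm10. The annotation, the trimming and whether counting used strand were not given in the sources used here. Columns were matched to samples by the library name in the labels. Rows that name no gene were left out. Of all CDS records, 65.8% to 79.6% were not uniquely aligned and 11.8% to 14.5% lay in no CDS, so genes with near-identical copies are undercounted.

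Symbols of the 10 genes came with the choice of the genes. The genes, lists and tests were chosen with earlier results of these data known. Values are named for each of the 10 genes, as the rule for named genes asks. The rule's lists of other nucleotide genes and of cell markers could not be read from IDs alone, and levels per coding length were not computed, as no coding lengths were used here.

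CDS counts were tested across all genes with edgeR 4.0.16 (R 4.3.3, filterByExpr, TMM, glmQLFit, two-sided, Benjamini-Hochberg). SE is the log2 change over the square root of F. 5' UTR counts relative to CDS counts were fitted in 1 model with a term per library, for region and for region in activated cells, for genes with at least 20 counts in each region, with TMM per region. Ratios used exact permutation over 20 assignments. DESeq2 1.42.0 and limma 3.58.1 served as alternatives. The replicate number was not used as a block in the main setting, as no label states a pairing. Deviations of same-numbered libraries correlated at 0.13, 0.07 and 0.23, and those of other pairs at -0.16 to 0.01. Not every same-numbered pair passed 0.1, so the block was run as an alternative. With 3 libraries a group, and few counts in 5' UTRs, small changes cannot be detected.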

Additional observations from a re-analysis of the deposited data

How the results depend on the processing

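The number of enzymes called higher in the CDS was 8 in the main setting, 7 with library totals alone (Atic lost) and 7 of 9 tested with at least 10 counts in every library (Ctps not tested), and 8 under the other alternatives, with each library left out included. Called at least 2-fold higher were 6, but 4 with library totals alone (without Impdh2 and Umps) and 5 with at least 10 counts in every library (Ctps not tested). Without resting replicate 2 or activated replicate 4 the number was 7, as Adsl then had log2 changes of 1.17 and 1.05. Over all genes, calls of at least 2-fold higher fell from 998 to 653 with at least 10 counts in every library, a setting that tests fewer genes. Changes that missed the threshold turned sign: Paics in the CDS was at -0.02 with upper quartile factors and -0.22 with library totals, and Gmps at -0.10 with library totals. Paics in the 5' UTR was at 0.02 with DESeq2 and ran from -0.26 to 0.13 with each library left out (0.04 without resting replicate 3). In the 5' UTR alone, 2 enzymes were called higher, and 3 without resting replicate 2 or 3 or activated replicate 4, where the filter let a further enzyme through.

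For 5' UTR over CDS counts, Ppat was at 0.19 and Paics at 0.11 with 1 scaling for both regions, and with each library left out Ppat ran from -0.30 to 0.12, Ctps from -0.17 to 1.02 and Cad from -1.21 to 0.67, none past the threshold. Genes called over the whole table numbered 17, and 3 with 1 scaling. Leaving out resting replicate 2, 3 or 4 gave 5, 2 and 2 genes, and leaving out activated replicate 2, 3 or 4 gave 22, 4 and 22. None was an enzyme described here in any of these fits. The cause of these moves was not tested.

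The difference in the share of CDS counts was 0.0841 percentage points and 0.0695 to 0.0951 with each library left out. Log2 differences of ratios then ran from -1.55 to -1.32 (Paics over Ppat), 0.81 to 1.39 (Impdh2 over Gmps) and 0.52 to 0.88 (Cad over Umps). With a replicate block, 8 enzymes were called higher with a median log2 change of 1.26, and 0 for 5' UTR over CDS counts, where 20 genes were called. The block changed no call among the 10, and over all genes it raised the CDS calls from 3082 to 3446. Each library correlated best with the same number in the other group, a hint from the data and not from the design. Levels per coding length and the other nucleotide genes were planned and not run. The 5' UTR values rest on few counts.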
